A study of Homo sapiens with 3 samples.

Results

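The 3 AKR1C aldo-keto reductase genes AKR1C1, AKR1C2 and AKR1C3 were followed beside 7 other genes, AKR1B1, AKR1B10, NQO1, GCLM, TXNRD1, SRXN1 and HMOX1, as targets of the transcription factor NRF2, in a breast cancer cell line. All probe sets annotated to exactly 1 of these 10 symbols were taken, which gave 20 probe sets for 9 genes, out of 41097 probe sets for 19775 named genes in all. AKR1B1 is not analysed here, and 1 further probe set whose annotation joined a member to another symbol was left out. The genes were chosen by their known link to NRF2 and by differences between these same 3 columns, seen in earlier results, so their values are given as a description and carry no test.

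The cells were MDA-MB-231, an established human breast cancer line of basal type. One array each held RNA from cells given tamoxifen at 1 µM for 3 h, estradiol at 1 µM for 3 h, or vehicle (0.1% ethanol) for 3 h. All 3 groups had first spent 4 h in medium with 10% charcoal-stripped serum, which is depleted of steroids. Tamoxifen is an antiestrogen and estradiol the main natural estrogen, and the sources used here do not name the solvent of the ligands. The title of the series puts its question as how tamoxifen affects early gene expression. With 1 array a group there is no replicate check, no error and no p-value for any difference, and the number of arrays limits the precision. In RNA from whole cultures, fewer cells expressing a gene and less RNA per cell cannot be told apart.

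NRF2, encoded by NFE2L2, is held at a low level by KEAP1, which hands it to the CUL3 ubiquitin ligase. Oxidants and electrophiles modify KEAP1, and NRF2 then accumulates, pairs with small MAF proteins and binds antioxidant response elements, from which BACH1 can displace it. Its targets make glutathione, reduce thioredoxin, quinones and carbonyls, and break down heme. The AKR1C enzymes also reduce steroids and prostaglandins, so they sit where the antioxidant response and steroid metabolism meet.

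The deposited values are on the log2 scale and express each probe set relative to an unstated baseline, which is not one of the columns, so they are not levels and cannot be compared between genes. Base and direction (higher meaning more RNA) were assumed. A rough level was read from the binary rounding of each number, which is coarser for brighter signals, and probe sets were sorted into bands of 8 to 16, 4 to 8, 2 to 4 and below 2 (log2). Those with a level of at least 4 are called above the floor, although a probe set can land 1 band too bright when all its values happen to fall on the coarser step. Above the floor lay 14 of the 20 member probe sets and 8 of the 9 genes, AKR1B10 being the exception. A gene with several probe sets is given by the average of those that share its brightest band, and a difference is called when it reaches 1.5-fold (0.58 on the log2 scale).

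Over the 12067 genes above the floor, the SD of the values was 0.49 for tamoxifen, 0.49 for estradiol and 0.20 for vehicle. Because of that narrow vehicle column, vehicle comparisons of the members and of the other genes and lists described were also computed in a second version that doubles the vehicle value, and which version lies closer to the truth was not tested. The poly-A control RNAs, spiked into each sample ahead of labelling, had a median difference of 0.84 for tamoxifen minus vehicle, 0.99 for estradiol minus vehicle and -0.16 for tamoxifen minus estradiol over 27 probe sets. Their part in the results was not tested. Of the markers of basal or mesenchymal breast lines, 9 of 10 lay above the floor, among them VIM, CD44 and AXL, with SPARC below it. Of the luminal markers, 7 of 11 did, namely ESR1, GATA3, SPDEF, AGR2 and the keratin genes KRT8, KRT18 and KRT19, while PGR, FOXA1, TFF1 and CDH1 lay below it. ESR1, the estrogen receptor, had 1 of 9 probe sets above the floor, with -0.77 in tamoxifen, -0.02 in estradiol and -0.06 in vehicle cells. That set lay in the band of 4 to 8, next to the floor, where a set can land 1 band too bright. Receptor protein was not measured, so these values do not show that the cells had a working receptor. AGR2 differed from vehicle by 1.78 with tamoxifen and 1.98 with estradiol, and by -0.11 and 0.09 with the vehicle doubled. Of the 7 leukocyte markers 5 had a probe set. PTPRC alone lay above the floor, with a difference of 0.62 for tamoxifen minus estradiol. Of the 7 fibroblast and endothelial markers 3 lay above it.

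The AKR1C genes were lower with tamoxifen than with estradiol, on every one of their probe sets above the floor. AKR1C3, an enzyme that makes testosterone from androstenedione and reduces prostaglandins, had a single probe set, with values of 1.94 in tamoxifen cells, 2.73 in estradiol cells and 1.64 in vehicle cells. Its estradiol value stood apart upward, and the other columns lay closer together. AKR1C2, which inactivates dihydrotestosterone, had 0.55 in tamoxifen, 1.52 in estradiol and 1.10 in vehicle cells on probe set 209699_x_at. On 211653_x_at it had 0.50 in tamoxifen, 2.28 in estradiol and 0.92 in vehicle cells. On both sets the order was estradiol, vehicle, tamoxifen from high to low. AKR1C1, which inactivates progesterone, had 0.98 in tamoxifen, 2.01 in estradiol and 1.07 in vehicle cells on 204151_x_at. On 216594_x_at the values were 0.72 in tamoxifen, 1.49 in estradiol and 0.62 in vehicle cells. For AKR1C1 the tamoxifen and vehicle values lay near each other on both sets, and the estradiol value was higher.

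As gene values, AKR1C1 was 1.87-fold lower with tamoxifen than with estradiol (log2 difference -0.90), AKR1C2 2.59-fold lower (-1.37) and AKR1C3 1.73-fold lower (-0.79). Of the 12067 genes above the floor, AKR1C2 had the 6th lowest difference in this comparison, AKR1C1 the 42nd and AKR1C3 the 77th. No vehicle value enters it, so the narrow vehicle column does not touch these 3 differences.

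**Figure D1:**
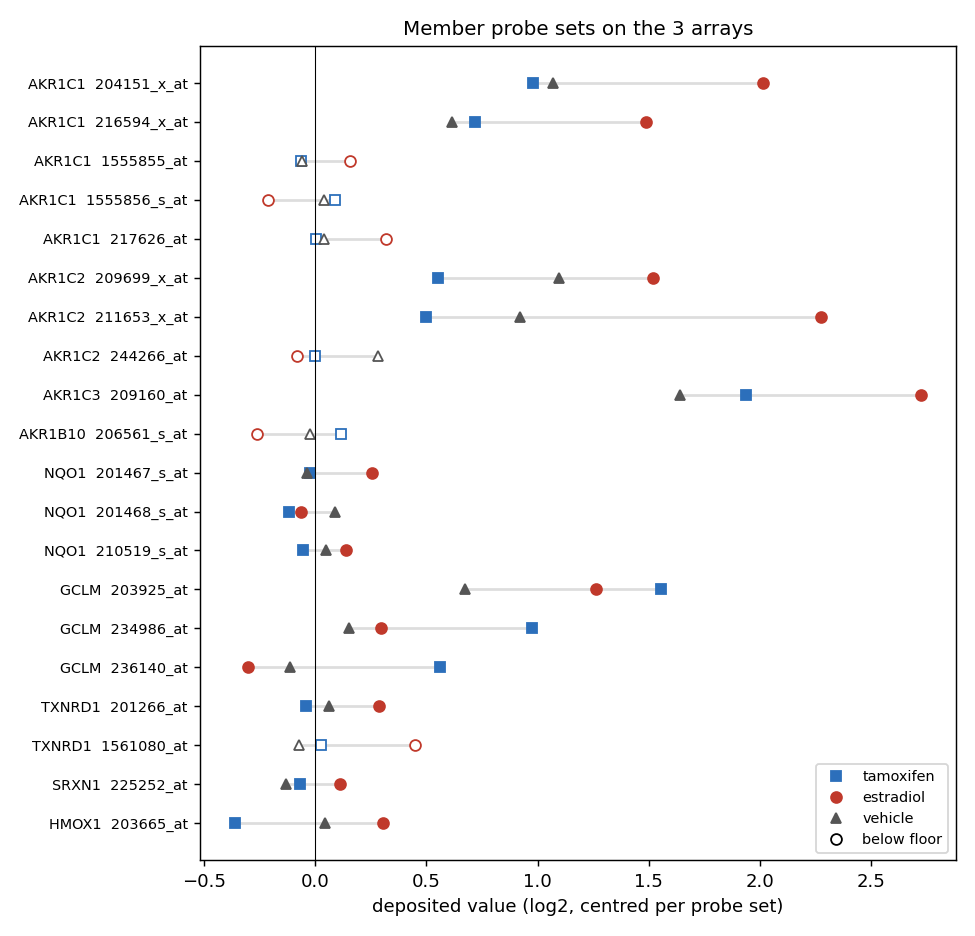
Deposited value (log2, centred per probe set) of each of the 20 member probe sets in tamoxifen, estradiol and vehicle cells, 1 array each; open symbols are probe sets below the brightness floor, and grey lines join the columns of 1 probe set. Filled AKR1C rows lie right of 0 in all 3 columns with estradiol farthest right, and the GCLM rows have tamoxifen farthest right.

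Against vehicle the AKR1C genes did not keep 1 answer across the versions of the vehicle column. As deposited, the tamoxifen differences were 0.00 for AKR1C1, -0.49 for AKR1C2 and 0.30 for AKR1C3, all within 1.5-fold. With the vehicle doubled they were -0.84, -1.50 and -1.34 in the same order, all past 1.5-fold downward. For estradiol the deposited differences were 0.91 for AKR1C1, 0.89 for AKR1C2 and 1.09 for AKR1C3, all past 1.5-fold upward. Doubling gave 0.07, -0.12 and -0.55, so as gene values AKR1C2 and AKR1C3 changed sign and none of the 3 was called. The 2 sets of AKR1C2 did not give 1 answer for estradiol. On 209699_x_at the difference was 0.42 as deposited and -0.68 with the vehicle doubled, and on 211653_x_at it was 1.35 and 0.43. For AKR1C1 doubling gave -0.13 on 204151_x_at and 0.26 on 216594_x_at. The vehicle values of these genes were themselves far above the baseline, AKR1C3 having the 10th highest vehicle value of all genes above the floor, AKR1C2 the 38th and AKR1C1 the 59th. As deposited, the estradiol differences were of about the size of the poly-A control difference (0.99), and the tamoxifen differences lay below theirs (0.84). With the vehicle doubled the poly-A differences were 0.44 with estradiol and 0.36 with tamoxifen. The hybridisation control RNAs differed from vehicle, as deposited, by 0.18 with estradiol and 0.10 with tamoxifen over 18 probe sets. With the vehicle doubled their differences were larger, at 0.32 and 0.23. Whether any of these control differences bears on the AKR1C genes was not tested.

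**Figure D2:**
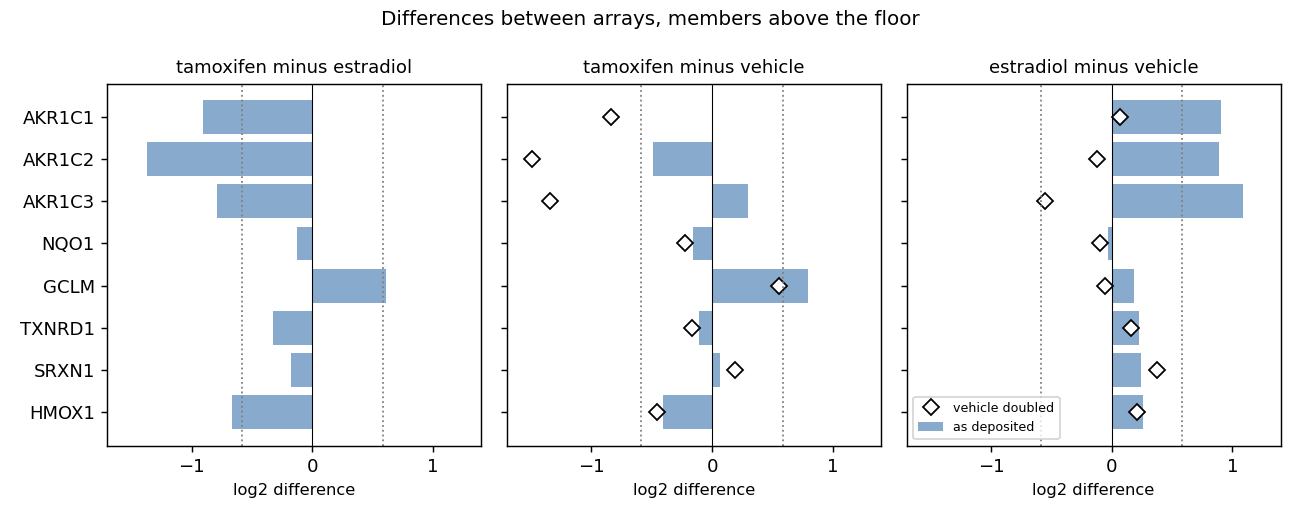
Log2 difference between arrays for the 8 members above the floor in 3 comparisons: bars use the deposited values, open diamonds the doubled vehicle value, and dotted lines mark 1.5-fold. The AKR1C bars point left for tamoxifen minus estradiol, and their diamonds lie away from their bars in both vehicle comparisons.

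The AKR1C genes are close paralogs that neighbour each other on chromosome 10, and their probe sets may share RNA. All 4 probe sets of AKR1C1 and AKR1C2 above the floor are of the type marked x, whose probes can bind other transcripts, so how much of each signal is AKR1C1, AKR1C2 or another family member cannot be told apart. The only AKR1C probe set above the floor without that mark is that of AKR1C3. The 4 further probe sets of AKR1C1 and AKR1C2 lay below the floor, and their tamoxifen minus estradiol differences ran between -0.31 and 0.30, with 2 above 0 and 2 below. One of them, 217626_at of AKR1C1, had 0.0044 in tamoxifen, 0.32 in estradiol and 0.04 in vehicle cells, while 1555856_s_at of the same gene had 0.09 in tamoxifen, -0.21 in estradiol and 0.04 in vehicle cells. When all probe sets of a gene were averaged, that difference was -0.41 for AKR1C1, within 1.5-fold, and -0.89 for AKR1C2.

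The likeness extends to the DNA before the start sites, most closely for AKR1C1 and AKR1C2. The 250 bases before the start of each AKR1C gene are printed because the 3 genes differed in the same direction between the ligands, and those of GCLM because its difference ran the other way. The sequences are from RefSeq (GRCh38.p14), 5′ to 3′ on the strand of the gene, and capitals mark matches to the core of the antioxidant response element, TGACNNNGC, on either strand.
AKR1C1, chr10:4963165-4963414, plus strand: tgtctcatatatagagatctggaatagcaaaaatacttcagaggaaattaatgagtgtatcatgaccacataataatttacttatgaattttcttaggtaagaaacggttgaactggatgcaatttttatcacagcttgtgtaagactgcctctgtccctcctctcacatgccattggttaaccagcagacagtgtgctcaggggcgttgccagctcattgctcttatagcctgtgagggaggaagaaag
AKR1C2, chr10:5003858-5004107, minus strand: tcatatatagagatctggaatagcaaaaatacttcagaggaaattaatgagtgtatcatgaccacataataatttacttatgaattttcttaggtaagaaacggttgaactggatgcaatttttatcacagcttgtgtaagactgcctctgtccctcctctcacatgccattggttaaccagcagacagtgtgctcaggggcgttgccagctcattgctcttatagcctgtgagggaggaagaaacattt
AKR1C3, chr10:5048531-5048780, plus strand: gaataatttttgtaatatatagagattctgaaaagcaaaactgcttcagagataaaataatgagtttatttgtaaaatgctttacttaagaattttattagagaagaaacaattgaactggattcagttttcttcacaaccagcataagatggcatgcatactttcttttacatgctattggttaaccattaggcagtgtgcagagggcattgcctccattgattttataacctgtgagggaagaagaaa
GCLM, chr1:93909431-93909680, minus strand: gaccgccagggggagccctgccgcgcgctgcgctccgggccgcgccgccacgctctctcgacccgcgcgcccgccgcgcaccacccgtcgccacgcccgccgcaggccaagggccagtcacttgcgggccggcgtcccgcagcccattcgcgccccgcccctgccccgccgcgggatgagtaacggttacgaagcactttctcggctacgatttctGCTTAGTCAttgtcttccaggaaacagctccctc

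In a global alignment the AKR1C1 and AKR1C2 sequences were identical at 245 of 254 columns (96.5%), and AKR1C1 and AKR1C3 at 189 of 261 (72.4%). AKR1C3 has 2 starts in the table, and the one more like AKR1C1 is shown. It was picked for that likeness, so the 72.4% is the higher of the 2 values. The sequence before the other start was identical to that of AKR1C1 at 69.9% of columns. The 2 AKR1C3 sequences were identical to each other at 66.8%. Identity between unrelated sequences was not computed. In windows of 300 bases, 250 before and 50 after the start, the motif was found in none of the AKR1C windows. GCLM had 1 match, on the opposite strand, whose first base lies 34 bases before the start. TXNRD1 had a match in each of its windows, and NQO1 and SRXN1 had none. Over all 35116 windows of that length in the table, 13.3% held a match. A match in such a window is a description of the letters and not of binding. The search did not reach beyond these windows. For a window without a match, whether the gene has the element farther away was not tested.

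GCLM, the regulatory subunit of the enzyme that starts glutathione synthesis, was the one member higher with tamoxifen than with estradiol past 1.5-fold. Its probe set 203925_at had 1.55 in tamoxifen, 1.26 in estradiol and 0.67 in vehicle cells. On 234986_at the values were 0.97 in tamoxifen, 0.30 in estradiol and 0.15 in vehicle cells. On 236140_at they were 0.56 in tamoxifen, -0.30 in estradiol and -0.11 in vehicle cells. Tamoxifen was highest on all 3 sets, none of which is of a cross-reacting type, while estradiol and vehicle changed order between sets. The gene was 1.53-fold higher with tamoxifen than with estradiol (0.61), 1.73-fold higher with tamoxifen than with vehicle (0.79), and 0.18 above vehicle with estradiol. With the vehicle doubled the tamoxifen difference was 0.55, just within 1.5-fold, and the estradiol difference was -0.06.

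HMOX1, heme oxygenase, which opens the heme ring and is repressed by BACH1, had -0.36 in tamoxifen, 0.30 in estradiol and 0.05 in vehicle cells on its single probe set. It was 1.59-fold lower with tamoxifen than with estradiol (-0.67). Against vehicle it differed by -0.41 with tamoxifen and by 0.26 with estradiol, neither past 1.5-fold, and by -0.45 and 0.21 with the vehicle doubled. Vehicle thus lay between the ligands for HMOX1 in both versions.

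NQO1, TXNRD1 and SRXN1 stayed within 1.5-fold in every comparison and in both versions of the vehicle. NQO1, a quinone reductase often used as the standard readout of NRF2, had gene values of -0.09 in tamoxifen, 0.04 in estradiol and 0.07 in vehicle cells. On 201468_s_at it had -0.12 in tamoxifen, -0.06 in estradiol and 0.09 in vehicle cells, and on 210519_s_at -0.06 in tamoxifen, 0.14 in estradiol and 0.05 in vehicle cells. The dimmer set, 201467_s_at, had -0.03 in tamoxifen, 0.26 in estradiol and -0.04 in vehicle cells. Tamoxifen was below estradiol on all 3 sets, by between 0.06 and 0.28, and as gene values the 3 columns of NQO1 lay closer together than those of any other member above the floor. TXNRD1, which reduces thioredoxin, had -0.04 in tamoxifen, 0.29 in estradiol and 0.06 in vehicle cells on its set above the floor, a tamoxifen minus estradiol difference of -0.33. SRXN1, which repairs oxidised peroxiredoxins, had -0.07 in tamoxifen, 0.11 in estradiol and -0.13 in vehicle cells. For both genes estradiol was the highest column. A TXNRD1 set below the floor had 0.03 in tamoxifen, 0.45 in estradiol and -0.07 in vehicle cells, again with estradiol highest. AKR1B10, a reductase of retinal and other carbonyls, lay below the floor, and its single probe set had 0.12 in tamoxifen, -0.26 in estradiol and -0.02 in vehicle cells.

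Counted over the 8 members above the floor, 4 were at least 1.5-fold lower with tamoxifen than with estradiol (AKR1C1, AKR1C2, AKR1C3 and HMOX1) and 1 was higher (GCLM). Of all genes above the floor 2.2% were lower and 1.57% higher by that rule. The median over the members was -0.50, against -0.02 over all genes. For tamoxifen minus vehicle, 1 of 8 was higher (GCLM; 6.97% of all genes) and 0 were lower (4.33%), with a median of -0.05 against 0.02. With the vehicle doubled, 0 were higher (7.14%) and 3 lower (3.64%). For estradiol minus vehicle, 3 of 8 were higher (the AKR1C genes; 5.83%) and 0 lower (2.65%), with a median of 0.25 against 0.02. Doubling left 0 higher (4.39%) and 0 lower (1.92%). The tamoxifen and estradiol comparisons share the vehicle column, and the members were chosen with these values known, so nothing is read from the shares.

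**Figure D3:**
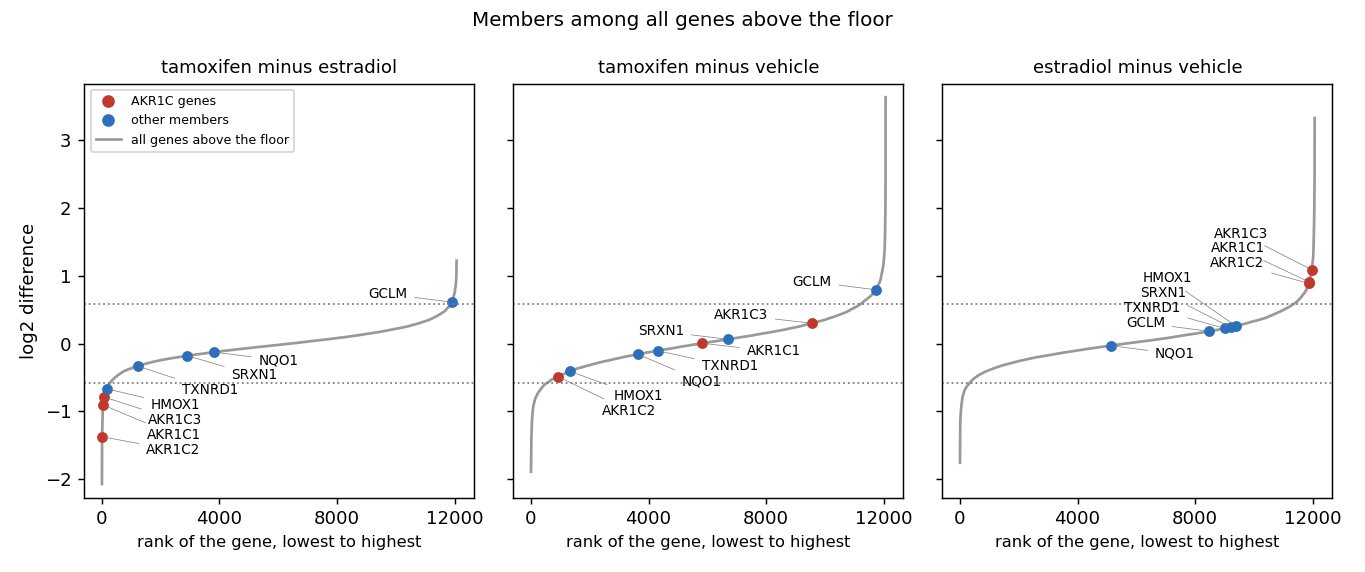
All 12067 genes above the floor ranked by log2 difference (grey curve) in each comparison, with the 8 members marked; dotted lines are 1.5-fold. The AKR1C genes sit at the low end for tamoxifen minus estradiol and at the high end for estradiol minus vehicle, and GCLM sits at the high end in both comparisons of tamoxifen.

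Of 14 listed regulators of NRF2, 13 had a probe set, and all 13 lay above the floor. In any comparison or either version of the vehicle 0 of them passed 1.5-fold, beside shares of all genes between 1.57% and 7.14% in a single direction. With a list this short, a count of 0 is near those shares and is not a result about the regulators. NFE2L2 itself had 0.66 in tamoxifen, 0.69 in estradiol and 0.22 in vehicle cells on its set above the floor, so the ligand columns lay together (-0.03) and above vehicle by 0.44 with tamoxifen and 0.47 with estradiol (0.22 and 0.25 with the vehicle doubled). KEAP1 had -0.55 in tamoxifen, -0.39 in estradiol and -0.18 in vehicle cells, at -0.37 with tamoxifen and -0.22 with estradiol against vehicle (-0.19 and -0.04 with the vehicle doubled). BACH1, the repressor that competes with NRF2, had -0.03 in tamoxifen, 0.46 in estradiol and 0.05 in vehicle cells, and its estradiol value was the highest of the 3. CUL3, the scaffold of the ligase, differed from vehicle by 0.56 with tamoxifen and 0.35 with estradiol on its brightest set, in both versions of the vehicle. A dimmer CUL3 set above the floor had the ligands in the other order, at 0.29 with tamoxifen and 0.36 with estradiol (0.20 and 0.27 with the vehicle doubled). SQSTM1, an autophagy receptor that binds KEAP1, differed from vehicle by 0.12 with tamoxifen and 0.44 with estradiol on its brightest set, and by 0.04 and 0.36 with the vehicle doubled. Its 3 dimmer sets above the floor gave -0.79, -0.46 and -0.08 with tamoxifen and -0.58, -0.44 and 0.10 with estradiol. Without the cross-reacting types SQSTM1 was at -0.62 with tamoxifen, past 1.5-fold downward, and at -0.51 with estradiol. The medians over the 13 regulators were -0.16 for tamoxifen minus estradiol, 0.08 for tamoxifen minus vehicle and 0.25 for estradiol minus vehicle, and the last 2 were 0.05 and 0.27 with the vehicle doubled.

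The list of other known NRF2 targets held 51 genes, of which 48 had a probe set and 40 lay above the floor. For tamoxifen minus estradiol 0 of the 40 were higher (1.57% of all genes) and 1 was lower (2.2%). For tamoxifen minus vehicle 2 were higher (6.97%) and 0 lower (4.33%), and with the vehicle doubled 2 were higher (7.14%) and 1 lower (3.64%). For estradiol minus vehicle 2 were higher (5.83%) and 0 lower (2.65%), and with the vehicle doubled 0 were higher (4.39%) and 0 lower (1.92%). These counts are near the shares of all genes and are not a result about the list. The medians with the vehicle as deposited were -0.10, -0.04 and 0.05 in that order, against -0.02, 0.02 and 0.02 over all genes. GCLC, the catalytic partner of GCLM, had 0.92 in tamoxifen, 0.44 in estradiol and 0.03 in vehicle cells on its brightest set. Like GCLM it was highest with tamoxifen, 1.85-fold above vehicle (0.89, and 0.85 with the vehicle doubled), and the difference between tamoxifen and estradiol was 0.48. A dimmer GCLC set above the floor, and not of a cross-reacting type, gave 0.32 for tamoxifen minus vehicle and 0.12 for tamoxifen minus estradiol. GSS, which carries out the next step of glutathione synthesis and was singled out after its values were seen, lay the other way, at -0.56 with tamoxifen and -0.40 with estradiol against vehicle (-0.54 and -0.38 with the vehicle doubled).

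UGDH, which makes the glucuronic acid donor used to conjugate steroids and drugs, had 0.86 in tamoxifen, 0.53 in estradiol and 0.06 in vehicle cells. It was 1.73-fold above vehicle with tamoxifen (0.79, and 0.73 with the vehicle doubled), and 0.46 above it with estradiol (0.40). FECH, which inserts iron into heme, differed from vehicle by 0.37 with tamoxifen and 0.67 with estradiol. The estradiol value was within 1.5-fold with the vehicle doubled (0.57) and with all probe sets averaged (0.47), and the tamoxifen value was 0.27 with the vehicle doubled. CHAC1 was the listed target with the lowest tamoxifen minus estradiol difference, at 0.22 in tamoxifen, 1.23 in estradiol and 0.49 in vehicle cells, or 2.0-fold lower with tamoxifen than with estradiol. CHAC1 breaks glutathione down and is better known as a target of ATF4 than of NRF2. Its columns ran estradiol, vehicle, tamoxifen from high to low, the order seen on the AKR1C2 sets above the floor. It differed from vehicle by -0.26 with tamoxifen and 0.74 with estradiol as deposited, and by -0.75 and 0.25 with the vehicle doubled.

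**Figure D4:**
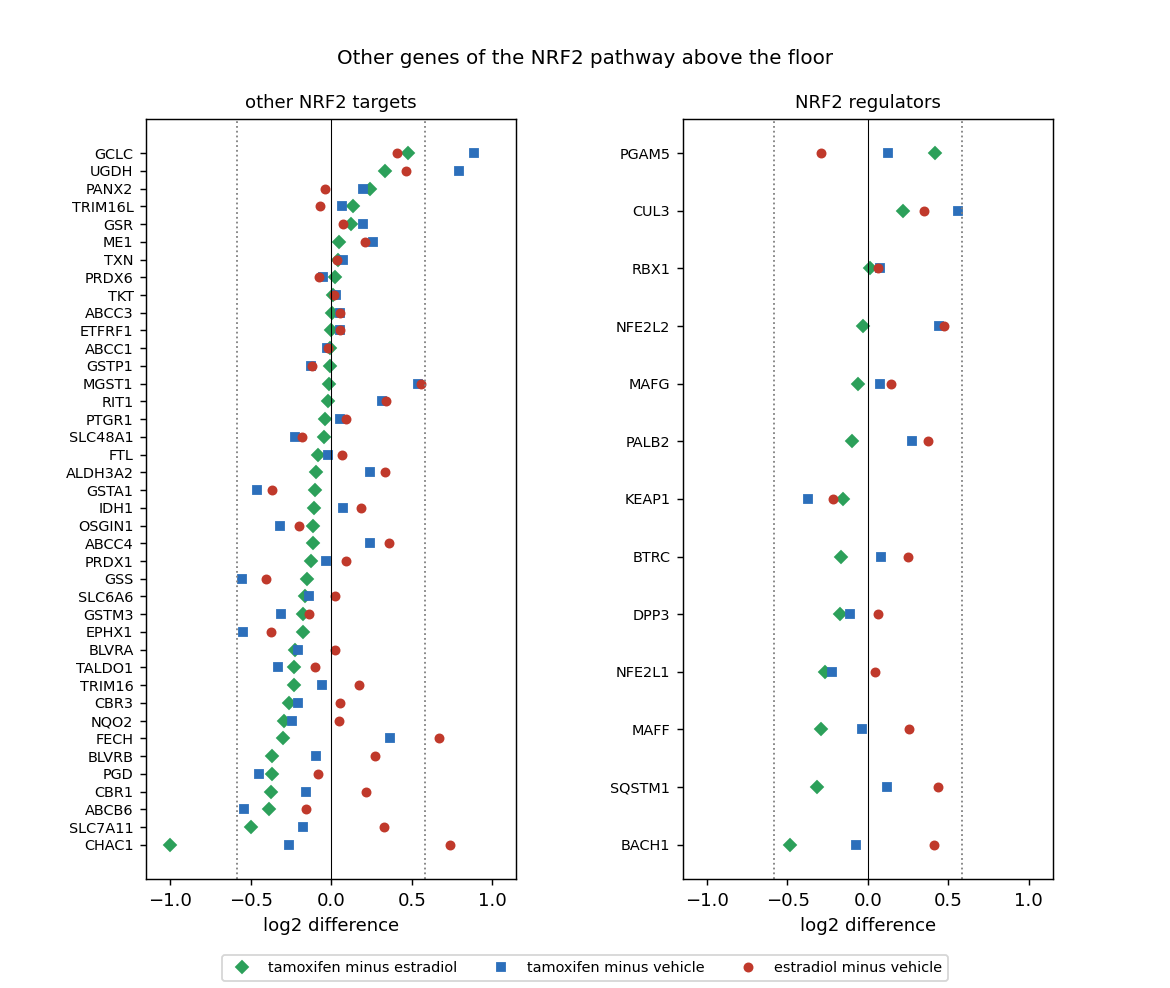
Log2 differences of the 40 other NRF2 targets (left) and 13 NRF2 regulators (right) above the floor, sorted by tamoxifen minus estradiol, with vehicle as deposited; dotted lines mark 1.5-fold. CHAC1 lies alone at the lower end of tamoxifen minus estradiol, GCLC and UGDH are past the line for tamoxifen minus vehicle, and no regulator passes a line.

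Other aldo-keto reductases had few genes to set beside the AKR1C family. Of 12 listed, 8 had a probe set and 2 lay above the floor. AKR7A2, an aldehyde reductase, differed by -0.09 for tamoxifen minus estradiol, by -0.08 for tamoxifen minus vehicle and by 0.01 for estradiol minus vehicle. AKR7A3, its close paralog, averaged -0.07, -0.17 and -0.09 in the same comparisons over 2 cross-reacting sets that ran opposite ways. One set, 206469_x_at, gave -0.29, -0.50 and -0.21 and the other, 216381_x_at, gave 0.14, 0.17 and 0.03.

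Among 40 listed genes of steroid metabolism 35 had a probe set and 18 lay above the floor. Of these 18, 0 passed 1.5-fold between tamoxifen and estradiol in either direction. The shares of all genes were 1.57% higher and 2.2% lower, under which a count of 0 in 18 is not a result about the list. For tamoxifen minus vehicle 1 was higher (6.97%) and 1 lower (4.33%), and with the vehicle doubled 1 was higher (7.14%) and 2 lower (3.64%). For estradiol minus vehicle 1 was higher (5.83%) and 0 lower (2.65%), and with the vehicle doubled 0 were higher (4.39%) and 1 lower (1.92%). Counts this small in a short list are not read as a result about it. CYP1B1, which hydroxylates estradiol and is induced through the aryl hydrocarbon receptor, had 3.16 in tamoxifen, 2.91 in estradiol and 1.21 in vehicle cells. Both ligand values of CYP1B1 were far above vehicle, by 1.95 with tamoxifen and 1.70 with estradiol (0.74 and 0.49 with the vehicle doubled), while the ligands differed by 0.25. HSD17B7, an enzyme of estradiol and cholesterol synthesis, was lower than vehicle past 1.5-fold with tamoxifen (-0.73) and within it with estradiol (-0.52), as it was with the vehicle doubled (-0.60 and -0.39). Its single probe set, 220081_x_at, is of a cross-reacting type, so the signal may include other transcripts. HSD17B4, which oxidises estradiol and peroxisomal fatty acids, differed from vehicle by 0.48 with tamoxifen and 0.58 with estradiol, both within 1.5-fold (0.32 and 0.42 with the vehicle doubled). STS, the sulfatase that frees estrogens from their sulfates, differed by -0.49 with tamoxifen and -0.08 with estradiol on its brightest set, and with the vehicle doubled by -1.04 and -0.63, both past 1.5-fold downward. Its dimmer sets above the floor gave 0.04 and 0.10 with tamoxifen and 0.51 and 0.12 with estradiol, so the sets did not give 1 direction.

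The genes with the pattern most like the AKR1C mean were sought by distance over the 2 differences from vehicle as deposited, tamoxifen (mean -0.06) and estradiol (mean 0.96). The 5 nearest were UBAC2-AS1, DAGLA, PAXBP1-AS1, SLC1A3 and REPS2, at distances of 0.07, 0.09, 0.13, 0.18 and 0.18. Counting these 5, 101 genes outside the AKR1C family (0.837% of those above the floor) were as near as AKR1C2, the farthest AKR1C gene (0.43). SLC1A3, a glutamate transporter, was the one of the 5 whose vehicle value was also high, with 0.58 in tamoxifen, 1.79 in estradiol and 0.82 in vehicle cells. Doubling the vehicle moved SLC1A3 to -1.06 with tamoxifen and 0.14 with estradiol, beside -0.84 and 0.07 for AKR1C1. AKR1C2 was then at -1.50 and -0.12 and AKR1C3 at -1.34 and -0.55, below 0 with estradiol where SLC1A3 was above it. REPS2, an endocytosis adaptor, had a vehicle value of 0.07 and kept differences of -0.08 with tamoxifen and 0.71 with estradiol after doubling. UBAC2-AS1, DAGLA and PAXBP1-AS1 were then at 0.10, 0.08 and 0.02 with tamoxifen and at 1.16, 1.01 and 0.88 with estradiol. For REPS2 and these genes the likeness to the AKR1C genes thus held only with the vehicle as deposited.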

How the data were processed

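RNA of MDA-MB-231 cells was hybridised to Affymetrix arrays of 54675 probe sets. The authors deposited log2 values made with robust multi-array averaging (RMA, version not given in the sources used here), per the submitters' processing notes. The baseline on which they are centred, and whether a column pools arrays, is not given either. Column medians were -0.02 for tamoxifen, -0.02 for estradiol and -0.04 for vehicle. Probe sets were named through the supplied platform annotation, in which 41097 had 1 symbol, 1801 had several and 11777 had none, and 0 symbols needed updating. Bands, gene means and differences were computed with Python 3.11.15, numpy 2.4.6 and pandas 2.3.3, and alignments with Biopython 1.88. Banding and calls of tamoxifen minus estradiol were tried on simulated levels, all above the floor, with a vehicle column made narrow. The calls there used a smaller threshold than 1.5-fold, and the levels were drawn away from the band edges. The 1.5-fold rule and the banding of levels near an edge were therefore not tried. The floor itself, the vehicle comparisons, the alignments and the motif search were not tried on simulated data. The vehicle column was shifted by 1 binary step for banding, since its steps are finer. No statistical test was run, because each group has 1 array. The members and lists were chosen with earlier results of these data known. Named are all members, NFE2L2, KEAP1 and BACH1, up to 4 genes a list with the largest absolute difference above the floor, and the 5 genes nearest to the AKR1C mean. Alternatives were the doubled vehicle, all probe sets averaged, no cross-reacting types, no floor, a floor of 8, and centring within bands.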

Additional observations from a re-analysis of the deposited data

How the results depend on the processing

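No paired analysis was possible because each group has 1 array. Centring within brightness bands left all 9 called differences of members past 1.5-fold. With the vehicle doubled, 0 of the 4 called differences from vehicle passed it, and those of AKR1C2 (-0.12) and AKR1C3 (-0.55) for estradiol reversed. The AKR1C2 value averages sets that split, at -0.68 on 209699_x_at and 0.43 on 211653_x_at. Members at least 1.5-fold higher were then 0 with tamoxifen and 0 with estradiol, members lower with tamoxifen were 3, and the medians were -0.34 with tamoxifen and 0.0048 with estradiol. Averaging all probe sets left 1 member higher with estradiol than vehicle, and a tamoxifen minus estradiol median of -0.39. Without cross-reacting types 5 members remained: 1 was higher with estradiol than vehicle, 2 were lower with tamoxifen than estradiol, and the medians were 0.063 for tamoxifen minus vehicle and -0.33 for tamoxifen minus estradiol. With no floor that last median was -0.33 over 9 members. A floor of 8 left 5 members, with a median of -0.33 for tamoxifen minus estradiol, 2 lower and 0 higher, and 0 higher for tamoxifen minus vehicle. Under those last 3 alternatives the median ran over other members. Signal over background could be read only as a band, and below the floor no difference was called.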
